A study of Bos taurus with 6 samples.

Results

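The respiratory chain subunits that the nuclear genome encodes were examined in rumen epithelial primary cells (REPC) with and without butyrate. The members were the gene entries whose symbols begin with NDUFA, NDUFB, NDUFC, NDUFS or NDUFV and a number, with UQCR or with ATP5, the subunit genes SDHA to SDHD, and the COX4 to COX8 symbols followed by at most a letter from A to C and 1 digit. This rule took 80 of the 32183 listed entries, with 36 in complex I, 4 in complex II, 8 in complex III, 14 in complex IV, 15 in complex V, ATP5S and ATP5SL as 2 genes of older ATP synthase names, and NDUFA4L2. NDUFA4 carries a complex I name but sits in complex IV and was counted there. The members are spread over 25 chromosomes. Subunits, carriers and associated proteins with symbols outside the rule, COX4I1, NDUFAB1, CYC1 and others, were taken as a separate list, from which COX7B2 was left out because it fits the rule.

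The respiratory chain passes electrons from NADH through complex I, or from succinate through complex II, to ubiquinone, then through complex III and cytochrome c to complex IV, where oxygen is reduced. Complexes I, III and IV pump protons across the inner mitochondrial membrane, and complex V, the ATP synthase, uses the gradient to make ATP. Most subunits come from nuclear genes and a few from mitochondrial DNA. Some complex IV subunits have a common form and a form typical of muscle, testis or another tissue. The rumen epithelium is known for oxidising butyrate, a short-chain fatty acid made by rumen microbes that is also an inhibitor of histone deacetylases.

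RNA-seq was done on 6 cultures, of which 3 received 5 mM butyrate for 24 h and 3 were untreated controls. The donor was a Holstein bull calf, 2 weeks old and on milk replacer. All cultures come from that animal, so the replicates measure the spread between cultures and not between cattle. Expression is given as FPKM, fragments scaled to transcript length and library size, as Cufflinks estimated it, and levels of different genes are therefore compared per length. Fold changes are on the log2(FPKM + 0.1) scale, butyrate over control. Testing by limma covered 15813 genes, those whose FPKM averaged at least 0.1. A gene was called at a Benjamini-Hochberg adjusted p under 0.05 over all those genes, and the study's stricter DEG rule (a Bonferroni-adjusted p below 0.05 together with a change beyond 2 on the log2 scale) is given beside it.

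The cultures matched the epithelial label in part. Of all genes tested, 32.5% were called higher after butyrate and 25.9% lower, which applies beside each marker count. Of 10 epithelial markers, 8 were higher after butyrate, and the summed FPKM went from 3322 to 3467 in control to 6697 to 6724 after butyrate. Of 10 fibroblast markers, 8 were tested and all 8 were higher, with a summed FPKM of 4356 to 4512 in control, mostly from VIM and COL1A1, and of 6374 to 6715 after butyrate. Of 5 smooth muscle markers, 4 were lower and 1 higher, and their summed FPKM, the highest of the marker lists in control, went from 6468 to 6796 in control to 2849 to 3456 after butyrate, mostly through ACTA2, CNN1 and TAGLN. The endothelial markers VWF and PECAM1 were higher at low levels (0.456 to 3.31 and 1.54 to 3.95 FPKM), with CDH5 listed at 0 in all 6 cultures. The leukocyte marker CD68 was higher as well (0.595 to 1.21 FPKM), with PTPRC listed at 0 in all 6. In bulk RNA, fewer cells of a type and less RNA per cell cannot be told apart, and the part of these marker shifts in the subunit values was not tested.

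After butyrate, most subunit genes were lower. Of the 79 members tested, 65 were lower, which is 82.3%, against 25.9% of all genes, and 6 were higher, which is 7.59%, against 32.5% of all genes. The remaining 8 were not called, and COX6A2 was listed at 0 in all 6 cultures and not tested. In each of the 65 genes called lower, all 3 butyrate values were below all 3 control values. Such separation was common, since 4564 of all 15813 genes tested had it downwards and 5713 upwards. The falls were moderate. The median log2 fold change of the members was -0.42, against 0.10 over all genes, and 9 members fell by over 1. By the DEG rule 3 members were higher (NDUFA4L2, COX7A1 and COX6B2) and 0 were lower, with 2.46% of all genes higher and 1.51% lower by that rule.

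The members are abundant transcripts, and abundant genes moved down as a class. Leaving out the 6 tissue-restricted forms and ATP5S and ATP5SL, the other 72 members had control means from 47.9 to 1028 FPKM with a median of 345, whereas the median of all tested genes was 5.53. Among the 1131 other genes with a mean FPKM of 100 or more, 54.9% were lower and 29.9% higher, and their median log2 fold change was -0.20. The 67 members at that level had 88.1% lower, 1.49% higher and a median of -0.42. A gene's FPKM also depends on what else is in the library, and the summed FPKM of all entries was between 678030 and 681910 in control and between 619400 and 629040 after butyrate. Rescaled to a common total (TPM), where the median of all genes moves up by 0.12, 50 members were lower and 8 higher. In TPM 21.4% of all genes were lower and 37.4% higher. After quantile normalization, where the median of all genes moves down by 0.15, 46 members were lower and 14 higher. Of all genes, 29.6% were then lower and 27.1% higher. Of the 65 members called lower, 45 were called lower under FPKM, TPM, median scaling and quantile normalization alike, and 5 of the 6 called higher stayed so, COX8B being the exception. NDUFA4, COX8A, NDUFA13, ATP5L and ATP5E, called lower in FPKM, were called higher after quantile normalization.

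**Figure D1:**
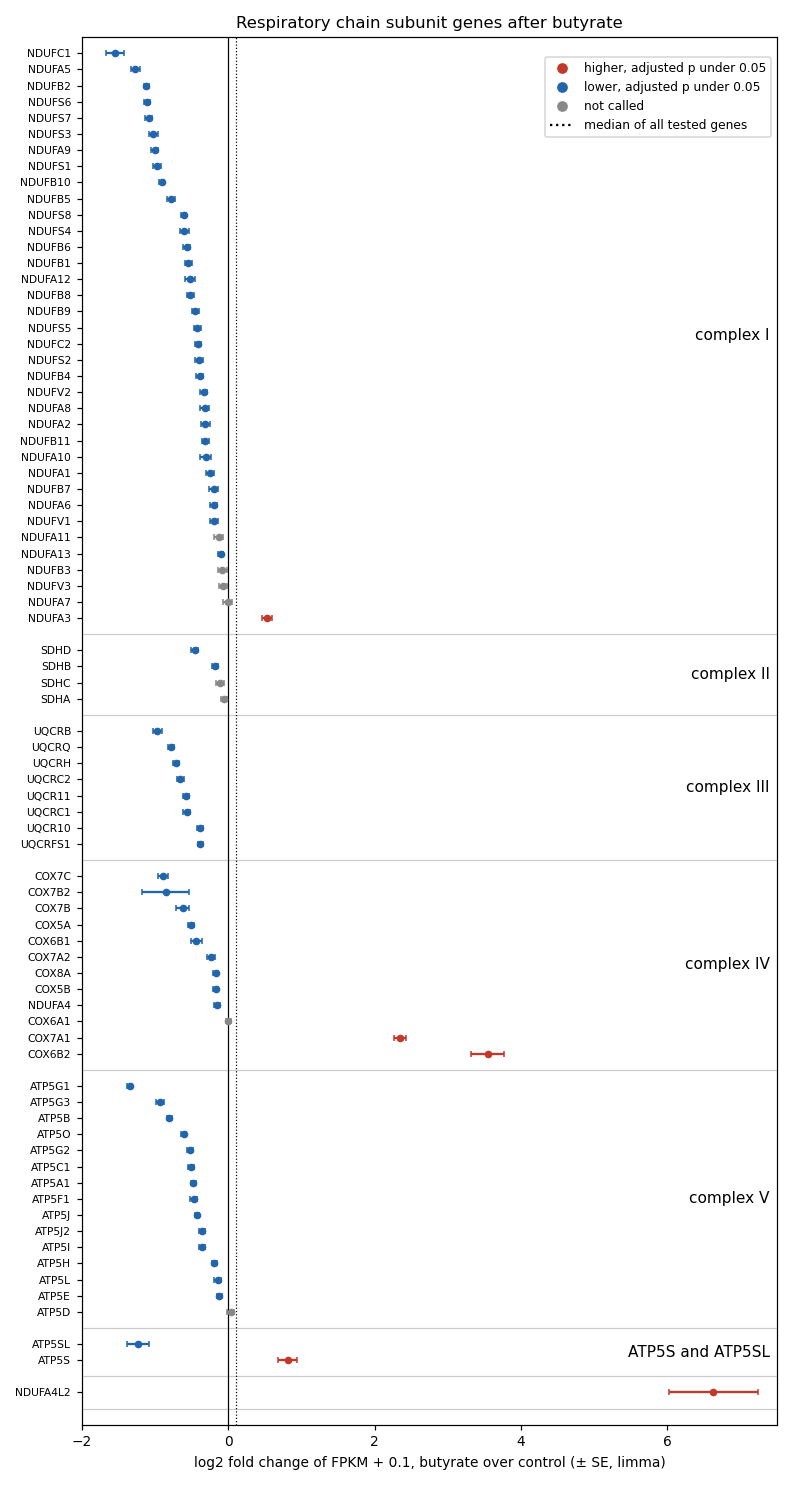
Log2 fold change of FPKM + 0.1, butyrate over control, for 78 of the 80 members by complex, with points at the limma estimate and bars at ± SE from 3 cultures per group; COX8B and COX6A2 are not drawn because their controls are all listed at 0. Most points lie left of 0 and of the dotted median of all tested genes (0.10), and NDUFA4L2, COX6B2 and COX7A1 stand far to the right.

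In complex I, 31 of 36 members were lower, 1 was higher (NDUFA3) and 4 were not called, with a median log2 fold change of -0.42. The shares of all genes in FPKM, 25.9% lower and 32.5% higher, apply beside each count by complex here and below. All 7 core subunits that the nucleus encodes, the ones that hold the flavin and the iron-sulphur clusters or line the quinone site, were called lower, with a median of -0.61. NDUFS7, which carries the cluster next to the quinone site, had 326, 345 and 349 FPKM in control and 154, 157 and 170 after butyrate. Its groups were well apart, and it fell by 1.09 ± 0.05 (SE) on the log2 scale (limma adjusted p = 5.53e-07). NDUFS3, of the arm that faces the matrix, had 110, 99.9 and 111 FPKM in control against 52.1, 54.8 and 51.0. NDUFS1, the largest iron-sulphur subunit, was the scarcest of the 72 common members, with 48.9, 48.2 and 46.7 FPKM in control and 24.1, 24.9 and 24.4 after butyrate. These genes lost about as much as each other, with falls of 1.02 ± 0.06 for NDUFS3 and 0.97 ± 0.06 for NDUFS1 on the log2 scale. The smallest fall of the 7 was that of NDUFV1, the NADH-binding subunit, whose log2 fold change was -0.19 ± 0.05 and whose call was not kept under every scaling. The NDUFS3 entry overlaps those of CELF1, KBTBD4 and PTPMT1, each of which was lower too.

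Among the 29 accessory subunits of complex I, 24 were lower and 1 was higher. NDUFC1, a small subunit of the membrane arm, fell most of all members. It had 374, 376 and 416 FPKM in control and 137, 107 and 161 after butyrate, a log2 fold change of -1.55 ± 0.13 (limma adjusted p = 1.39e-05). Its 3 treated cultures differed among themselves more than those of most members, but all were far below every control. NDUFA5, an accessory subunit of the peripheral arm, went from 331, 317 and 315 to 122, 137 and 142 FPKM. NDUFB2, a membrane-arm subunit, went from 329, 321 and 324 to 148, 151 and 150 FPKM, with hardly any spread in either group. NDUFS6, a zinc-binding subunit needed late in assembly, went from 433, 431 and 450 to 197, 215 and 197 FPKM. The log2 falls were 1.27 ± 0.06, 1.12 ± 0.04 and 1.11 ± 0.05 for NDUFA5, NDUFB2 and NDUFS6. NDUFA9, which sits near the quinone site, fell by 1.00 ± 0.05, from 117.8 ± 1.90 to 58.8 ± 1.74 FPKM (SD, n = 3 each). Members other than those picked by the rule for named genes, such as NDUFV1, were named after their values were seen. The most abundant complex I member, NDUFB1, had 745, 787 and 704 FPKM in control and 513, 501 and 517 after butyrate, a log2 fold change of -0.54 ± 0.05.

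NDUFA3, a membrane-arm accessory subunit, was the exception in complex I. It had 186, 210 and 225 FPKM in control and 288, 309 and 296 after butyrate, so that all treated cultures were above all controls, and it rose by 0.53 ± 0.07 on the log2 scale (limma adjusted p = 1.96e-04). The call held under every scaling. NDUFA11, NDUFB3, NDUFV3 and NDUFA7, named after their values were seen as the members not called, had log2 fold changes from -0.13 to -0.01. Within this complex the log2 changes thus ran from -1.55 to 0.53.

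Complex II changed least in FPKM. This enzyme, succinate dehydrogenase, belongs to the citric acid cycle as well as to the chain. Its 4 members had log2 fold changes from -0.46 to -0.06, and SDHD and SDHB were called lower, but the median of the 4 was -0.15 in FPKM and 0.03 after quantile normalization. SDHD, an anchor in the membrane, had 137, 131 and 128 FPKM in control and 98.3, 93.4 and 97.2 after butyrate. SDHA, the flavoprotein that binds succinate, was the most abundant, with 312, 318 and 332 FPKM in control and 303, 300 and 319 after butyrate. These ranges overlap, and the log2 fold change of SDHA was -0.06 ± 0.04 (limma adjusted p = 0.254), with the opposite sign under TPM (0.06) and quantile normalization (0.15). SDHA was called higher after quantile normalization (limma adjusted p = 0.0179).

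In complex III, the cytochrome bc1 complex, all 8 members were called lower, the log2 fold changes ranging from -0.97 to -0.38 with a median of -0.61, and no member lost the call under another scaling. UQCRB, a subunit named for ubiquinone binding, had 832, 783 and 792 FPKM in control and 386, 395 and 453 after butyrate. It fell by 0.97 ± 0.06 on the log2 scale (limma adjusted p = 2.80e-06). UQCR11, the smallest subunit, was the most abundant of all members in control, at 999, 1058 and 1028 FPKM, and had 671, 685 and 719 FPKM after butyrate. The Rieske iron-sulphur protein UQCRFS1 showed the smallest fall, from 303.8 ± 4.34 to 233.8 ± 5.32 FPKM (SD, n = 3 each), and the core proteins UQCRC1 and UQCRC2 had log2 fold changes of -0.57 and -0.65.

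Complex IV, cytochrome c oxidase, was split between common and tissue-restricted subunit forms. Of its 9 common members 8 were lower, against 25.9% of all genes, but by little, with a median log2 fold change of -0.23. Over all 13 tested members of the complex the median was -0.17 in FPKM, -0.05 in TPM and 0.02 after quantile normalization. In TPM 4 of the 13 were lower and 4 higher, against 9 and 3 in FPKM. Of all genes, 21.4% were lower and 37.4% higher in TPM. COX7C fell most of the common members, from 865, 915 and 855 to 442, 446 and 533 FPKM, a log2 fall of 0.89 ± 0.07. COX6A1, the most abundant complex IV member, had 932, 971 and 921 FPKM in control and 916, 946 and 969 after butyrate. The groups overlap, and its log2 fold change was 0.00 ± 0.04 (limma adjusted p = 0.931), with the sign depending on the scaling and on which culture was left out. COX8A had a log2 fold change of -0.17 ± 0.04 and NDUFA4 one of -0.15 ± 0.04, and both were called lower in FPKM. After quantile normalization both were instead called higher, at 0.13 and 0.16 (limma adjusted p = 0.0143 and 0.00341). The COX6B1 entry spans only 190 bases and COX8A 330, and FPKM of so short an entry depends strongly on the assumed length.

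In complex V, 14 of 15 members were lower, with a median log2 fold change of -0.47. After quantile normalization 9 were lower and 3 higher, with a median of -0.21. Over all genes that scaling gave 29.6% lower and 27.1% higher. ATP5B, the catalytic beta subunit, was the most abundant, with 916, 921 and 964 FPKM in control and 540, 535 and 525 after butyrate. Its groups were far apart against their spread, and it fell by 0.81 ± 0.04 on the log2 scale (limma adjusted p = 3.73e-07). Its partner ATP5A1, the alpha subunit, fell less, with a log2 fold change of -0.47 ± 0.04. ATP5D, the delta subunit of the same complex, was the one not called, with 421, 425 and 414 FPKM in control and 416, 452 and 421 after butyrate. It was called higher in TPM (log2 fold change 0.16) and after quantile normalization (0.30).

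The c subunit of complex V, whose ring turns as protons pass, is made from 3 genes that encode the same mature protein with different import sequences, and these genes changed to different degrees. ATP5G1 had 303, 315 and 308 FPKM in control and 123, 122 and 119 after butyrate, a log2 fold change of -1.35 ± 0.04 (limma adjusted p = 6.23e-08). ATP5G3 went from 680, 691 and 729 to 383, 342 and 377 FPKM. ATP5G2 went from 502, 500 and 467 to 346, 337 and 343 FPKM. Their log2 fold changes were -0.93 ± 0.05 for ATP5G3 and -0.52 ± 0.04 for ATP5G2. ATP5G1 thereby went from 20.6% ± 0.276 to 14.6% ± 0.591 of the FPKM of the 3 genes and ATP5G2 from 32.7% ± 1.45 to 41.2% ± 0.754 (SD, n = 3 each, exact two-sided permutation test, p = 0.1 for each, the smallest p that 3 against 3 cultures allow). The share of ATP5G3 was 46.7% in control and 44.2% after butyrate.

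Summed over its members, complex III fell by 34.4%, complex V by 27.1%, complex I by 27.0%, complex IV by 16.1% and complex II by 10.7%, and in each of them the treated cultures lay below all controls. The sum over all members was 29589 to 29727 FPKM in control and 21559 to 22677 after butyrate. As a share of all FPKM the members went from 4.36% ± 0.00495 to 3.54% ± 0.0628 (SD, n = 3 each), which is a fall by 18.8%. Complexes I, III and V also had shares of all FPKM that fell by 20.5%, 28.6% and 20.6%, the share of complex II fell by 2.76% and that of complex IV fell by 8.65%. The sum over the 13 subunits encoded in mitochondrial DNA fell by 11.1%, and their share of all FPKM was 2.33% to 2.42% in control and 2.22% to 2.37% after butyrate, so that those ranges overlap.

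**Figure D2:**
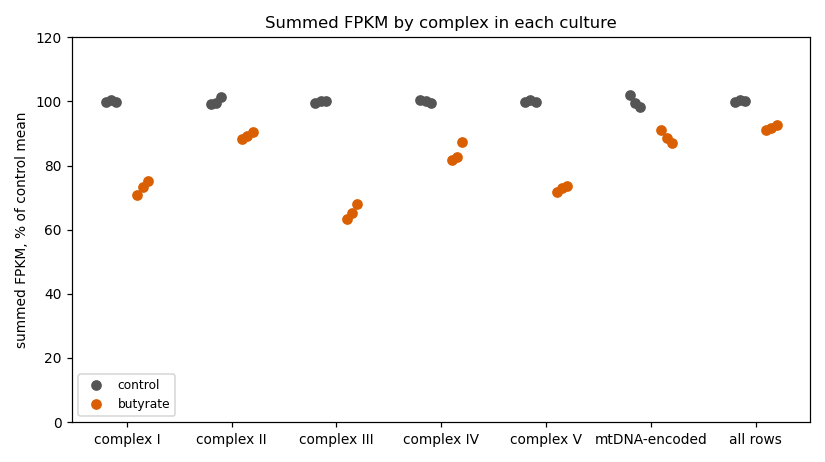
Summed FPKM of each complex in each culture, as a percentage of the control mean of that sum, with 1 point per culture; mitochondrially encoded subunits and all listed entries are shown for comparison. The treated cultures lie lowest in complex III and nearest to control in complex II, the mitochondrially encoded subunits and all entries.

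NDUFA4L2 moved against the rest. Its protein resembles the complex IV subunit NDUFA4, and it is known as a target of hypoxia-inducible factor 1 and as a transcript of pericytes. The gene lies at chr5:56537021-56539329 (UMD3.1 per the processing notes). It was at 0.215, 0 and 0.672 FPKM in control and at 28.2, 31.0 and 26.6 FPKM after butyrate. The treated cultures were alike and far above the controls, which sat at the limit of what was measured, since Cufflinks gave 0 as their lower confidence bound and at most 1.57 as the upper. On the log2(FPKM + 0.1) scale it rose by 6.63 ± 0.61 (limma adjusted p = 2.46e-05), a value that depends on the pseudocount and ranged from 4.54 to 7.95 over the alternatives. It met the DEG rule only just, with a limma Bonferroni p of 0.0494, and kept that label under 4 of 16 alternatives. Every rescaling removed the label, with a Bonferroni p of 0.118 in TPM, 0.131 in TPM over nuclear entries, 0.0671 after quantile normalization and 0.0695 with median scaling. It was also lost at a pseudocount of 0.01, without the filter, without the trend and with a replicate block. Leaving out any 1 treated culture or control replicate 1 removed it too (Bonferroni p of 1). The Benjamini-Hochberg p of NDUFA4L2 was at most 0.00153 in all 16.

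NDUFA4, the common form (chr4:18973419-18980828), had 548, 545 and 534 FPKM in control and 473, 490 and 500 after butyrate. In every culture it thus exceeded NDUFA4L2. NDUFA4L2 made up 0.0549% ± 0.0642 of the FPKM of the pair in control and 5.54% ± 0.456 after butyrate (SD, n = 3 each, exact two-sided permutation test, p = 0.1, the smallest possible). The NDUFA4L2 entry overlaps that of SHMT2, named here for that reason only, which was higher than NDUFA4L2 in all cultures and was lower after butyrate (108.1 FPKM in control, 66.9 after butyrate). With the strand setting not given, the entries could share reads, which was not tested. The pericyte markers RGS5, KCNJ8 and ABCC9 were at or near 0 throughout, and the 3 other pericyte markers were higher, their list summing to 22.8 to 23.8 FPKM in control and 31.5 to 40.3 after butyrate.

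COX7A1 and COX6B2 rose as well. COX7A1, the form of subunit 7A typical of heart and skeletal muscle (chr18:46994975-46996555), had 23.6, 21.4 and 18.8 FPKM in control and 104, 115 and 105 after butyrate. This is 5.09 times the control mean, and it rose by 2.35 ± 0.09 on the log2 scale (limma adjusted p = 1.70e-07), with the DEG label under all 16 alternatives. COX6B2, the testis form of subunit 6B (chr18:62573333-62574842), had 6.02, 3.46 and 5.59 FPKM in control and 64.3, 67.8 and 45.0 after butyrate. Butyrate replicate 3 was below the other treated cultures but far above every control. COX6B2 rose by 3.55 ± 0.22 (limma adjusted p = 2.57e-06) and kept the DEG label under 9 of 16 alternatives, losing it on leaving out any 1 treated culture or control replicate 1 or 3, where the Bonferroni p was between 0.0813 and 0.492.

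The common partners of these forms were the more abundant in every culture. COX7A2 had 434, 429 and 403 FPKM in control and 352, 345 and 381 after butyrate, and COX6B1 had 665, 597 and 671 and then 454, 453 and 526 FPKM. COX7A1 made up 4.78% ± 0.350 of its pair in control and 23.1% ± 1.74 after butyrate, and COX6B2 made up 0.767% ± 0.169 and 11.1% ± 2.81 of its pair (SD, n = 3 each, exact two-sided permutation test, p = 0.1 for each). COX7A2 and COX6B1 were called lower in FPKM, but not after quantile normalization, and COX7A2 not in TPM.

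Other tissue-restricted forms were near or at 0. COX8B, the muscle form of subunit 8, was listed at 0 in the 3 controls and at 1.19, 0 and 2.51 FPKM after butyrate. It was called (limma adjusted p = 0.0480), but the call was lost under either other pseudocount, without the filter, after quantile normalization, without the trend and without any 1 culture except butyrate replicate 2. COX7B2, the testis form of subunit 7B, had 0.80, 0.86 and 1.12 FPKM in control and 0.579, 0.279 and 0.592 after butyrate, with an adjusted p of 0.0499 by limma, and lost the call without any 1 culture (0.0549 to 0.144). The COX7B2 call was also lost in TPM (limma adjusted p = 0.0811), in TPM over nuclear entries (0.0813) and at a pseudocount of 0.01 (0.06). The same held without the filter (0.0757) and with a replicate block (0.0573). Cufflinks gave 0 as its lower confidence bound in every culture. The sum over the 6 tissue-restricted forms was 25.7 to 30.6 FPKM in control and 180 to 214 after butyrate. Striated muscle markers moved in both directions beside them. TNNT1 rose from 0.361 to 38.4 FPKM, ACTA1 fell from 116 to 14.5 FPKM and MYH7 and MYL2 were below 0.1 on average in both groups, and the part of such cells was not tested.

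**Figure D3:**
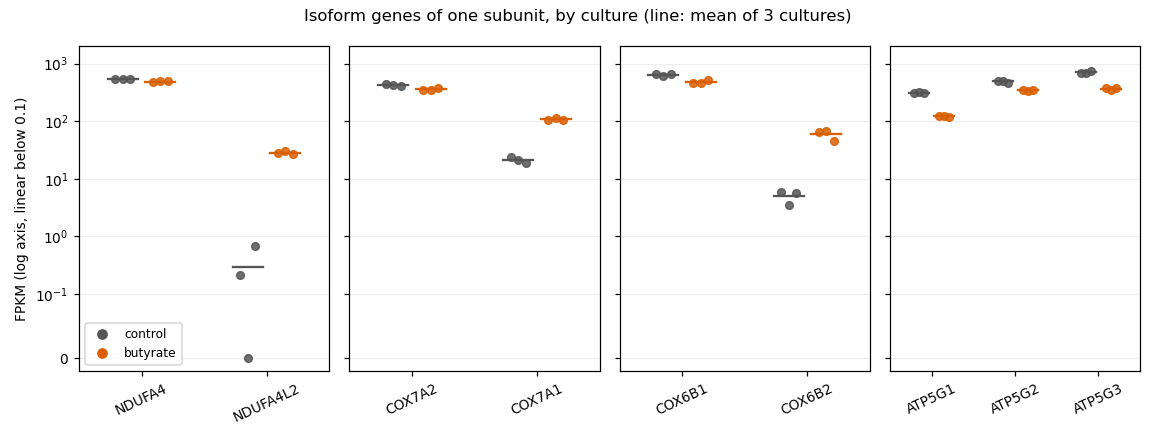
FPKM of the genes that encode forms of one subunit, with 1 point per culture and a line at the mean of 3 cultures, on a logarithmic axis that is linear below 0.1. NDUFA4L2, COX7A1 and COX6B2 rise towards their common partners without reaching them, and the 3 c subunit genes fall by different amounts.

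ATP5S and ATP5SL carry ATP synthase names but are not structural subunits. ATP5S, also called DMAC2L or coupling factor B, had 6.89, 9.00 and 6.71 FPKM in control and 12.5, 14.2 and 12.9 after butyrate, and rose by 0.81 ± 0.13 on the log2 scale (limma adjusted p = 6.69e-04). Its entry overlaps that of CDKL1, which was at most 0.196 FPKM in any culture. ATP5SL, also called DMAC2, a factor in complex I assembly, had 13.8, 16.3 and 13.8 FPKM in control and 4.93, 6.43 and 7.35 after butyrate, and fell by 1.23 ± 0.15 (limma adjusted p = 1.49e-04). The groups did not overlap in either gene.

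Subunits, carriers and associated proteins outside the naming rule, ATPIF1 and COX7A2L among them, were lower too. Of 8 such genes tested, all 8 were lower, with a median log2 fold change of -0.67. CYC1, the cytochrome c1 of complex III, went from 401 to 180 FPKM (log2 fold change -1.16), CYCS, cytochrome c, from 85.2 to 43.2 (-0.98) and NDUFAB1, the acyl carrier protein of complex I, from 270.0 to 168 (-0.69). COX4I1 had a log2 fold change of -0.24 (0.05 after quantile normalization), and its lung form COX4I2 was listed at 0 in control and was not tested. Of the 13 mitochondrially encoded subunits, 10 were lower, with a median of -0.23, CYTB showing the largest change at -0.39, then ND2 at -0.36 and ND4L at -0.34, and COX1, ND1 and ND6 were not called. In TPM 5 of the 13 were lower and 1 higher, and after quantile normalization 4 were lower and 2 higher. Of all genes, 25.9% were lower in FPKM, 21.4% in TPM and 29.6% after quantile normalization. The shares of all genes higher were 32.5%, 37.4% and 27.1% in that order.

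Assembly factors, which put the subunits and their cofactors together, were lower in part. The shares of all genes, 25.9% lower and 32.5% higher, apply beside each count. For complex I, 9 of 16 (56.2%) were lower and 2 higher, with ACAD9 at a log2 fold change of -2.14, NDUFAF5 at -1.94 and TMEM126A at -1.58. ACAD9 also met the DEG rule, by which 1.51% of all genes were lower. For complexes II, III and V, 8 of 11 (72.7%) were lower and 0 higher, led by SDHAF4 (-1.44), BCS1L (-0.97), which inserts the Rieske protein, and ATPAF2 (-0.72). For complex IV, 8 of 20 (40.0%) were lower and 2 higher, with TACO1 (-0.92), COX10 (-0.85), which makes haem O, and COX16 (-0.71) among the lower. The median over those 20 was -0.14 in FPKM and -0.02 in TPM. TACO1 lost the call without butyrate replicate 2 (limma adjusted p = 0.0833) or control replicate 1 (0.0752). Names with several entries were counted at the entry with the highest mean FPKM.

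Other genes of mitochondrial metabolism and of protein synthesis were also lower. The shares of all genes, 25.9% lower and 32.5% higher, apply beside each count. Of 14 enzymes of the citric acid cycle, 12 were lower and 0 higher, with a median of -0.51, and IDH3B (-1.32), IDH2 (-1.02) and IDH3A (-0.85), all isocitrate dehydrogenase genes, changed most. Of 77 mitochondrial ribosomal proteins, 66 were lower and 0 higher, with a median of -0.56. MRPL15 went from 47.1 to 8.16 FPKM, MRPS7 from 96.9 to 21.9 and MRPL46 from 50.8 to 16.6. Of 79 cytosolic ribosomal proteins tested, 75 were lower and 0 higher, with a median of -0.49, led by RPL3 (-1.12), RPL10A (-1.07) and RPL13 (-0.99).

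Of 18 tested regulators of mitochondrial genes and related factors, 9 were lower (50.0%, against 25.9% of all genes) and 2 higher (11.1%, against 32.5%). EPAS1 (hypoxia-inducible factor 2 alpha) rose from 0.0695 to 0.683 FPKM and HIF1A, named after its values were seen, from 31.4 to 45.4. MYC fell from 95.3 to 58.8 FPKM and GABPB2, a subunit of nuclear respiratory factor 2, from 1.42 to 0.751 (not called without control replicate 2, limma adjusted p = 0.0534), whereas PPARGC1A, the coactivator known for driving mitochondrial biogenesis, was below 0.05 on average in both groups. Genes known as targets of hypoxia-inducible factors, listed beside NDUFA4L2, were mixed, with 8 of 19 higher (42.1%, against 32.5% of all genes) and 5 lower (26.3%, against 25.9%). PFKFB4 had a log2 fold change of 1.33 and MXI1 of 1.30, while PGK1, a glycolytic enzyme, was at -1.26, and none of the 19 met the DEG rule.

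**Figure D4:**
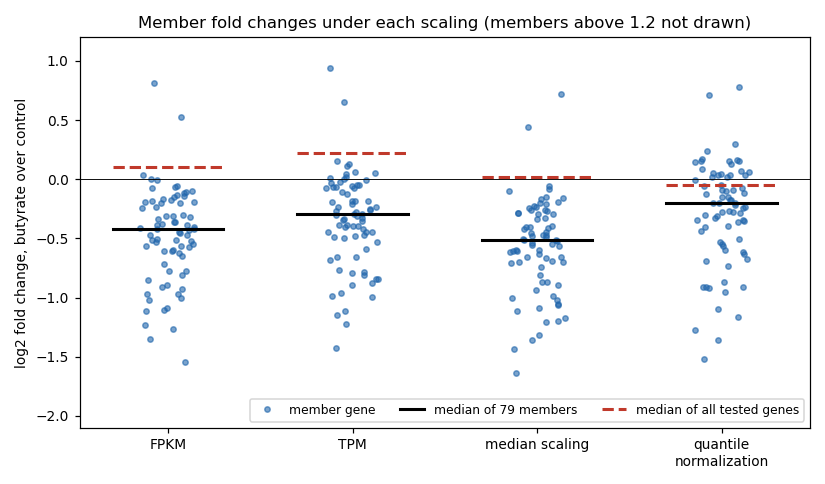
Log2 fold changes of the members under FPKM as deposited, TPM, median scaling and quantile normalization, with 1 point per member drawn, a solid line at the median of the 79 members and a dashed line at the median of all tested genes. NDUFA4L2, COX6B2, COX7A1 and COX8B lie above the axis under each scaling and are not drawn. The members' median lies below that of all genes by 0.53, 0.52, 0.53 and 0.16, in that order.

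The plot of fold changes under each scaling shows how far the members' values depend on it. With quantile normalization the median of the members was -0.20 and that of the other genes at 100 FPKM or more was -0.03, against -0.42 and -0.20 in FPKM. After quantile normalization 23 of 36 members of complex I, 1 of 4 of complex II, 8 of 8 of complex III, 4 of 13 of complex IV and 9 of 15 of complex V were lower, against 31, 2, 8, 9 and 14 in FPKM. Of all genes, 29.6% were lower after quantile normalization and 25.9% in FPKM, so complexes II and IV were near that share after quantile normalization. In the same order, 3, 1, 0, 5 and 3 members were higher after quantile normalization, with 27.1% of all genes higher.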

How the data were processed

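Per the labels and the study's methods, total RNA (RIN 9.0) of 3 control and 3 butyrate cultures was made into libraries with an Illumina TruSeq kit and sequenced in pairs. The authors trimmed reads with Trim Galore 0.4.1, aligned them with STAR, kept uniquely mapped reads and deposited gene FPKM from Cufflinks with confidence bounds. The processing notes name UMD3.1, and the strand setting is not given in the sources used here. The FPKM tables hold no counts, so the number of reads behind each value is unknown and no count test was run. The median half-width of the bounds was 7.01% of the FPKM over the members.

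Entries were joined by position, and locus starts were shifted to count from 1. An estimate marked as failed removed 2 genes. Symbols came from the tables, and RefSeq names of ARS-UCD2.0 served only to put sequences on chromosomes. Groups came from the treatment label. Values of log2(FPKM + 0.1) were fitted without covariates by limma 3.58.1 (R 4.3.3, eBayes with trend) for genes whose FPKM averaged at least 0.1, and this step was tested on simulated data. Shares per culture had exact permutation tests in scipy 1.17.1. Alternatives were pseudocounts of 0.01 and 1, no filter and a filter at 1, TPM, TPM over nuclear entries (chosen after seeing the data), median scaling, quantile normalization, no trend, a replicate block, the DEG rule, confidence bounds and each culture left out. Same-numbered cultures had correlations of their deviations from the group means of 0.0228, -0.00431 and 0.00177 across genes, so the numbers do not pair them.

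The members, the gene lists and the tests were chosen with earlier results of these data known. The rule for named genes took NDUFA4L2 and NDUFA4, the most abundant member of each complex in control, the 12 largest called rises and falls, the isoform pairs, the c subunit genes and up to 3 genes with the largest called change from each list. Other data types of the series were not used here.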

Additional observations from a re-analysis of the deposited data

How the results depend on the processing

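The counts of members called, 6 higher and 65 lower, depended mainly on the scale. After quantile normalization 14 were higher, against 27.1% of all genes. By the DEG rule 3 were higher and 0 lower, against 2.46% and 1.51% of all genes. Leaving out 1 culture gave 5 to 6 higher and 59 to 63 lower. With a replicate block, which the cultures' numbers do not justify, 6 were higher and 63 lower. The rise of NDUFA4L2 in the share of its pair, 5.48 percentage points, was 4.62 points at the lower and 6.29 points at the upper Cufflinks confidence bound, and 5.28 to 5.73 points on leaving out 1 culture. Small log2 fold changes turned sign, and NDUFA4, COX8A and SDHA were called higher after quantile normalization. NDUFA4 was at 0.158, COX8A at 0.133, COX4I1 at 0.052 and SDHA at 0.152 after quantile normalization, SDHA was at 0.063 in TPM and at 0.062 in TPM over nuclear entries, and COX6A1 was at -0.087 with median scaling, -0.015 without butyrate replicate 3, -0.003 without control replicate 1 and -0.011 without control replicate 3, while it reached 0.027 without control replicate 2 and was called higher in TPM (0.127) and after quantile normalization (0.17). The cause was not tested. Of the values of the named genes under the alternatives, 891 had an unchanged direction and call, 36 lost the call (10 genes), 4 gained it (2 genes) and 10 turned sign (5 genes). Genes near 0 FPKM, such as NDUFA4L2 in control and COX8B, have fold changes that follow the pseudocount.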
